A study of Drosophila melanogaster with 24 samples.

Results

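The change of the mushroom body neuroblast transcriptome late in larval life was measured by comparing 3 RNA-seq libraries made 84 h after larval hatching with 3 libraries made 50 h after hatching. These 6 libraries were chosen by lineage and age from 24 libraries of Drosophila melanogaster neuroblasts in 8 groups, and all 15339 genes of the deposited count table entered. Neuroblasts are stem cells that produce the neurons of the fly brain, and the mushroom body is its centre for olfactory learning and memory. In every group newly hatched larvae were collected within 2 h and raised at 25 °C, about 30 brains were dissected per age, and GFP-labelled cells were picked after digestion with pronase and dispase. Each library was amplified from about 100 pooled cells, with 89, 101 and 107 cells recorded at 50 h and 108, 102 and 120 cells at 84 h, and ERCC spike-in mix 1 was added. The labels state neither the genotype, nor the driver of GFP, nor the sex of the larvae, and they do not say whether replicate libraries came from separate dissections, so p-values measure only the spread between these libraries. The antennal lobe lineage, a lineage of the primary olfactory centre with 3 libraries at each of the same ages, shares no library with the mushroom body comparison and was used to test differences between lineages. Mushroom body neuroblasts of 24 h larvae and of pupae 36 h after puparium formation, with 3 libraries each, are also cited below.

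As background, mushroom body neuroblasts divide throughout larval life and produce gamma, then alpha'/beta', then alpha/beta neurons. The RNA-binding proteins Imp and Syp oppose each other in these stem cells, Imp being high in young neuroblasts and Syp in old ones, and chinmo, a BTB zinc finger factor, is a target through which they set neuronal fate. Towards the end of larval life the steroid hormone ecdysone acts through the receptor EcR and early genes such as broad (br) and Eip93F.

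The 50 h libraries held 3150371, 3690269 and 4161921 gene counts, and the 84 h libraries 4881712, 4674446 and 5019551. They detected 10646 to 11520 genes each. Log expression correlated at 0.923 to 0.932 within an age and at 0.9 to 0.916 between ages. Levels below are CPM, that is counts scaled to a common library total after TMM normalisation. A limit of 3 counts corresponds to 0.538 to 0.887 CPM in these libraries and covers counting error only. The summed level of 6 neuroblast markers was 2135 to 2613 CPM at 50 h and 1800 to 2425 CPM at 84 h. The neuroblast gene deadpan (dpn) lay at 470, 503 and 463 CPM at 50 h and at 529, 368 and 573 CPM at 84 h. The glial factor repo stayed at or below 3.49 CPM in all 6 libraries. Summed markers of mushroom body lineage factors (ey, toy, Rx, dac) were 299 to 420 CPM at 50 h and 210 to 288 CPM at 84 h, and those of the antennal lobe lineage (ems, acj6) were 2.15 to 6.8 and 0.939 to 7.35 CPM. Among other cell types, neuron markers summed to 375 to 501 CPM at 50 h and 350 to 437 CPM at 84 h, glia markers to 490 to 506 and 321 to 391 CPM, tracheal markers to 13.3 to 23.5 and 58.8 to 133 CPM, and muscle markers to 14 to 37.5 and 30.3 to 79.6 CPM. No marker was at 0 in all 6 libraries. In bulk libraries fewer cells of a type and less RNA per cell cannot be told apart.

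Of 10324 genes tested, 401 (3.88%) differed between the ages at an adjusted p below 0.05 (edgeR quasi-likelihood test, Benjamini-Hochberg). Of these, 103 were higher at 84 h (0.998% of genes tested) and 298 were lower (2.89%). Every count of called genes in a list below is to be read beside these shares. The median change of the genes called higher was 0.96 on the log2 scale, and 25 of them exceeded 2. The median of the genes called lower was −0.88, and 39 of them fell by more than 2 log2 units. The 3 libraries of one age lay wholly above those of the other for 99 of the 103 and for 284 of the 298, while this held for 21.1% of all genes tested. Scaling by spike-in counts and cell number in place of TMM turned the split into 1454 higher and 35 lower, with a median over all genes of 0.79, since the 84 h libraries held 2.23, 2.16 and 2.06 gene counts per spike-in count and cell against 1.55, 1.04 and 1.26 at 50 h. Every fall below is therefore a fall relative to the other genes of the library. The limma test on the deposited TPM values plus 1 gave 182 higher and 178 lower. The number of genes called lower was 182 without replicate 3 of 50 h, 192 without replicate 2 of 84 h and 194 without replicate 3 of 84 h. Of the 401 genes, 151 were called with each of the 6 libraries left out in turn and 15 were lost with any of them left out. The number called higher was 61 without replicate 1 of 84 h and 68 without replicate 3 of 84 h.

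**Figure D1:**
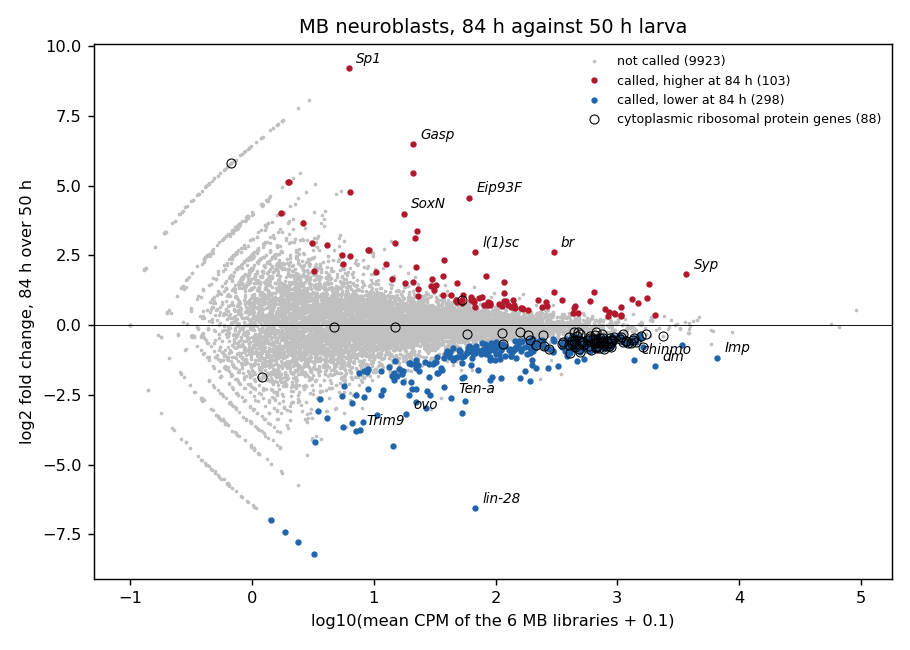
Log2 change from 50 to 84 h in mushroom body neuroblasts (vertical axis) against the log10 of the mean level (CPM plus 0.1, horizontal axis) for each gene tested, with the 103 genes called higher and the 298 called lower coloured and ribosomal protein genes circled. Most ribosomal protein genes form a tight group below 0 at high levels, while the largest changes belong to genes at low levels.

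The RNA-binding timers moved in opposite directions. Imp (FBgn0262735, X:10690246-10700889, dm3) stood at 9883, 7831 and 9822 CPM at 50 h and at 4435, 3502 and 4342 CPM at 84 h. All 3 late libraries lay below all 3 early ones, a fall of 2.24-fold (log2 −1.16 ± 0.12 SE, adjusted p = 2.5e-07, edgeR). Syp (FBgn0038826, 3R:16582451-16631963) stood at 1637, 1475 and 1764 CPM at 50 h and at 6501, 4553 and 6195 CPM at 84 h. The groups did not overlap, and Syp rose 3.54-fold (log2 1.82 ± 0.23, adjusted p = 8.5e-05). At 50 h Imp was the higher of the pair in every library by CPM, and at 84 h Syp was the higher in every library, though CPM are not scaled for transcript length and the order between genes is only that of read counts. The means of 24 h larvae (11284 CPM for Imp, 1170 CPM for Syp) and of pupae 36 h after puparium formation (589 and 10664 CPM) lay on the same 2 courses.

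The heterochronic RNA-binding gene lin-28, which blocks maturation of let-7 microRNAs in other animals and in flies, had the largest log2 change of the timers tested. Its level was 133, 120 and 149 CPM at 50 h and 1.85, 1.08 and 1.31 CPM at 84 h, so that the late libraries stood not far above the limit of 3 counts. The fall was 95.1-fold (log2 −6.56 ± 0.72, adjusted p = 2.4e-05). The chinmo gene stood at 2000, 1483 and 2307 CPM at 50 h and at 930, 561 and 985 CPM at 84 h. Its libraries did not overlap, and it fell 2.34-fold (log2 −1.23 ± 0.23, adjusted p = 0.0027). Of 15 tested temporal factors and RNA-binding timers, 1 rose (Syp) and 3 fell (lin-28, chinmo, Imp), with a median log2 change of −0.48 beside 0.01 over all genes. Over all genes tested 0.998% rose and 2.89% fell. Under spike-in scaling Imp (log2 −0.42, adjusted p = 0.29) and chinmo (−0.49, adjusted p = 0.22) were no longer called, while lin-28 (−5.80) was. The other 11 members did not pass the test. Among embryonic timers castor (cas) was at 35.2, 70.2 and 50.0 CPM and then 49.8, 18.8 and 43.2 CPM, seven-up (svp) at 107, 62.2 and 96.5 and then 77.7, 55.9 and 99.9 CPM, and grainyhead (grh) was at 802, 634 and 849 and then 645, 505 and 602 CPM. The ages overlapped for these 3, as they did for hb (23 counts in all at 50 h and 61 at 84 h, log2 1.00), Kr (0.55) and nub (15 and 7 counts, −1.50). They did not overlap for the POU gene pdm2, with 0 counts at 50 h and 1.85, 2.69 and 0.376 CPM at 84 h (adjusted p = 0.19, and 0.045 under spike-in scaling), or for the SoxB gene D, at 7.98, 6.85 and 6.22 and then 4.31, 2.87 and 1.69 CPM (−1.25, adjusted p = 0.29). Lin29 (−0.14, adjusted p = 0.84) and Blimp-1 (14 counts and 1 count, adjusted p = 0.34) overlapped between ages. The gene mamo, a marker of alpha'/beta' fate whose transcripts are known from newborn neurons, was at 1.48, 1.47 and 8.14 CPM and then 1.85, 1.25 and 4.70 CPM (adjusted p = 0.89).

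**Figure D2:**
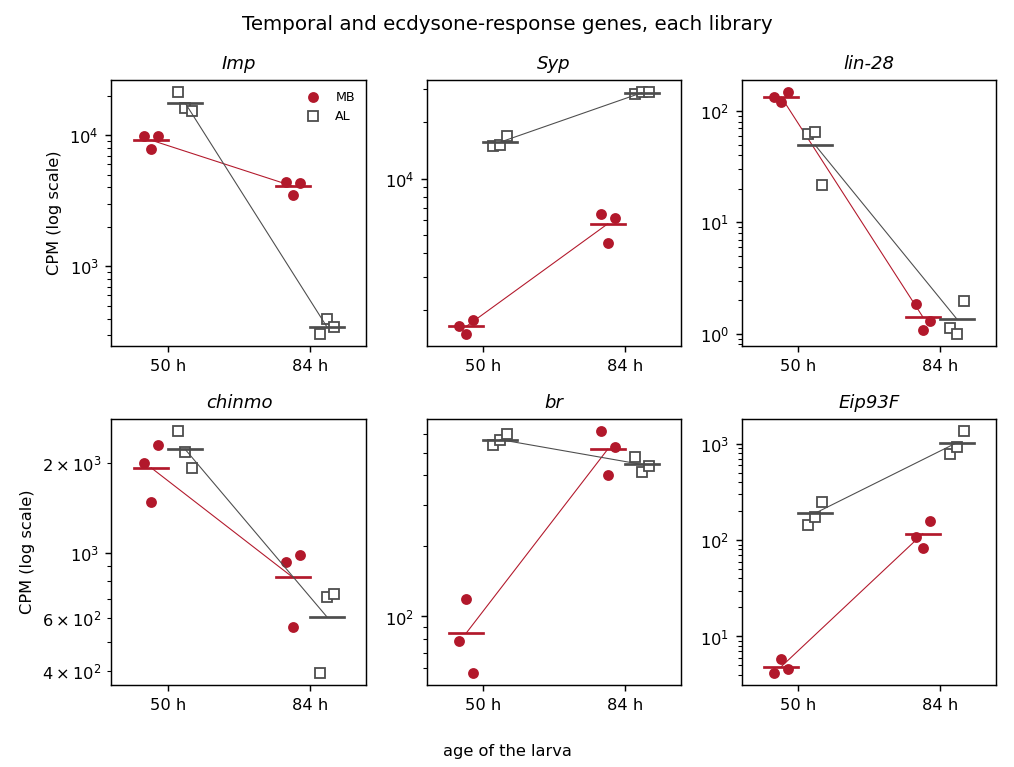
Levels of Imp, Syp, lin-28, chinmo, br and Eip93F (CPM, log axis) in each library at 50 and 84 h, with mushroom body libraries as filled circles, antennal lobe libraries as open squares, a bar at each mean and lines joining the means. In the mushroom body Syp, br and Eip93F are higher and Imp, lin-28 and chinmo lower at 84 h with no overlap, and the fall of Imp is much smaller than in the antennal lobe.

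Among ecdysone response genes 2 transcription factors rose steeply. The level of br, whose zinc finger protein marks the larval to pupal transition, was 78.4, 119 and 57.2 CPM at 50 h and 619, 403 and 529 CPM at 84 h. Every late library exceeded every early one, a rise of 6.1-fold (log2 2.61 ± 0.19, adjusted p = 7.3e-12). Eip93F, a factor of the later ecdysone programme, stood at 4.14, 5.87 and 4.55 CPM at 50 h and at 109, 83.7 and 158 CPM at 84 h, and the 24.0-fold rise (log2 4.57 ± 0.42, adjusted p = 2.1e-06) showed no overlap. In pupae the mean was 502 CPM for Eip93F and 48.4 CPM for br. The ecdysone-inducible transporter gene E23 rose from 0.591, 0.979 and 2.15 CPM to 3.90, 4.12 and 6.95 CPM (log2 1.95 ± 0.43, adjusted p = 0.0031), from 15 counts in all at 50 h to 79 counts at 84 h, with replicate 1 of 50 h below the limit of 3 counts. The receptor itself did not pass: EcR was at 143, 90.8 and 180 CPM and then 185, 126 and 203 CPM (log2 0.31, adjusted p = 0.52), and its partner usp was at 24.2, 23.5 and 13.6 and then 24.4, 25.6 and 44.3 CPM (0.62, adjusted p = 0.39). The early genes Eip74EF (log2 1.23, adjusted p = 0.21) and Eip75B (−0.13, adjusted p = 0.88) and the receptor gene Hr46 (0.97, adjusted p = 0.41) were not called. The other 10, Eip78C, Hr39, Hr78, ftz-f1, Eip71CD, Eip63F-1, ImpE1, ImpL2, dor and crol, had log2 changes of −0.31 to 1.25 and adjusted p of 0.41 to 0.95, and Eip78C overlaps CG43218, with 1.04 times its counts.

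In this list 2 genes fell. The coactivator tai went from 489, 456 and 598 to 380, 246 and 345 CPM with no overlap (log2 −0.67 ± 0.15, adjusted p = 0.0046), a call lost without replicate 3 of 50 h or replicate 2 of 84 h (−0.80 to −0.50 over the 6 fits with 1 library left out) and turned to 0.09 by spike-in scaling. The nuclear receptor gene Hr4 went from 54.1, 24.0 and 34.5 to 10.5, 20.3 and 13.9 CPM (−1.32 ± 0.38, adjusted p = 0.04969), and was lost without replicate 1 or 3 of either age (−1.60 to −0.94). In all, 3 of 20 tested ecdysone genes rose and 2 fell, beside 0.998% higher and 2.89% lower over all genes tested. The median of the list was 0.27. Of 8 tested juvenile hormone response genes 2 fell, Chd64 and the chaperone gene Hsp83, beside 2.89% of all genes tested. Chd64, a calponin-like protein that takes part in juvenile hormone signalling, went from 275, 222 and 272 to 147, 98.9 and 141 CPM (−0.99 ± 0.17, adjusted p = 0.00012).

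Calls among transcription factors of the lineages are given beside the 3.88% called over all genes tested. The Pax6 gene ey, which mushroom body neuroblasts need, was at 112, 108 and 127 CPM and then 84.1, 87.1 and 105 CPM (log2 −0.33, adjusted p = 0.51), and the homeobox gene Rx at 95.8, 109 and 144 and then 71.4, 56.1 and 82.5 CPM (−0.74, adjusted p = 0.15). Of 8 mushroom body factors 1 was called, dac, which fell from 23.9, 41.9 and 80.7 to 13.7, 7.17 and 5.26 CPM (−2.49 ± 0.62, adjusted p = 0.014). The list of newborn neuron and ganglion mother cell markers also holds dac. The call of dac was lost without replicate 3 of 50 h, replicate 2 of 84 h or replicate 3 of 84 h (−2.97 to −1.92). None of 6 genes on the antennal lobe factor list was called by edgeR, DESeq2 or limma. An unadjusted p below 0.05 was reached by 0 of the 6, beside 14.5% of all genes tested. The smallest adjusted p by edgeR was 0.73, for oc. Despite its place on that list, oc was higher in the mushroom body (267 to 313 CPM at 50 h) than in the antennal lobe (3.59 to 16.5 CPM at 50 h). The TALE homeobox gene hth, a Hox cofactor, rose from 77.2, 32.6 and 69.7 to 182, 134 and 202 CPM with no overlap (1.54 ± 0.23, adjusted p = 0.00019), the 1 call among 7 Hox genes and cofactors.

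SoxN, a SoxB factor of neural progenitors, was near absent at 50 h, with 1.77, 0.979 and 3.35 CPM, and stood at 42.7, 16.5 and 40 CPM at 84 h. The 16.2-fold rise (log2 3.99 ± 0.32, adjusted p = 3.7e-10) held with each library left out (3.66 to 4.60). In pupae SoxN was at 1.87, 1.82 and 1.55 CPM. The proneural gene l(1)sc went from 33.7, 9.06 and 15.1 to 73.6, 133 and 144 CPM (2.61 ± 0.64, adjusted p = 0.023), and was lost without replicate 2 or 3 of either age (2.30 to 3.30). The zinc finger gene klu fell from 637, 461 and 654 to 384, 314 and 483 CPM, with overlapping libraries (−0.57 ± 0.15, adjusted p = 0.017), and was lost in 4 of the 6 fits, all but those without replicate 2 of 50 h or replicate 3 of 84 h (−0.71 to −0.42). The proneural gene ase fell from 120, 115 and 128 to 55.2, 68.1 and 94.3 CPM (−0.74 ± 0.20, adjusted p = 0.026), called in just 1 of the 6, that without replicate 3 of 84 h (−0.94 to −0.58). So 2 of 21 self-renewal factors rose and 2 fell, beside 0.998% higher and 2.89% lower over all genes tested. The median of the list was 0.03, and spike-in scaling turned klu (0.17) and ase (0.03) positive. Of 19 genes of asymmetric division 1 was called, stau, which localises prospero RNA, at 842, 701 and 875 and then 1118, 912 and 1218 CPM (0.43 ± 0.12, adjusted p = 0.025). It was lost without replicate 2 of 50 h, replicate 1 of 84 h or replicate 3 of 84 h (0.36 to 0.55). Among 23 Notch pathway genes and targets the receptor gene N alone was called, at 531, 473 and 554 and then 373, 366 and 353 CPM (−0.51 ± 0.12, adjusted p = 0.0089, and 0.25 under spike-in scaling). It was lost without replicate 1 or 3 of 50 h or replicate 3 of 84 h (−0.54 to −0.46).

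The growth regulator dm and several insulin and TOR genes fell. The fly Myc gene dm (FBgn0262656, X:3267192-3280049), a driver of ribosome production and neuroblast size, stood at 3017, 2346 and 3647 CPM at 50 h and at 1209, 996 and 1031 CPM at 84 h. The libraries were far apart, and the 2.78-fold fall had a log2 of −1.48 ± 0.12 (adjusted p = 2.7e-11), or −0.72 (adjusted p = 0.067) under spike-in scaling. Of the genes listed with it, Mnt (−0.44, adjusted p = 0.21) and Mio (−0.21, adjusted p = 0.66) were not called, and dm was the 1 of 7 genes on the Myc list that fell. Of 22 insulin and TOR genes 5 fell, with a median of −0.18, beside 2.89% lower over all genes tested. Under spike-in scaling 0 of the 22 were called lower and 2 higher. The 5 that fell were Thor, the translational repressor 4E-BP, the kinase gene Pdk1, the TOR inhibitor chrb, the transporter gene path and the insulin receptor InR, so that both activators and inhibitors of the pathway were among them.

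Thor went from 375, 390 and 441 to 153, 125 and 141 CPM, a 2.88-fold fall with no overlap (log2 −1.53 ± 0.28, adjusted p = 0.002). Pdk1 went from 419, 291 and 460 to 205, 178 and 216 CPM (−0.97 ± 0.14, adjusted p = 9.1e-06), and chrb from 590, 403 and 618 to 326, 179 and 377 CPM (−0.87 ± 0.19, adjusted p = 0.0053). All 3 calls held with each library left out. The amino acid transporter gene path went from 959, 827 and 903 to 450, 588 and 475 CPM (−0.83 ± 0.22, adjusted p = 0.04), and its call was lost with any library left out (−0.94 to −0.75). InR went from 931, 691 and 908 to 511, 611 and 554 CPM (−0.59 ± 0.14, adjusted p = 0.0063, and 0.16 under spike-in scaling) and was lost without replicate 1 or 3 of either age (−0.69 to −0.49).

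**Figure D3:**
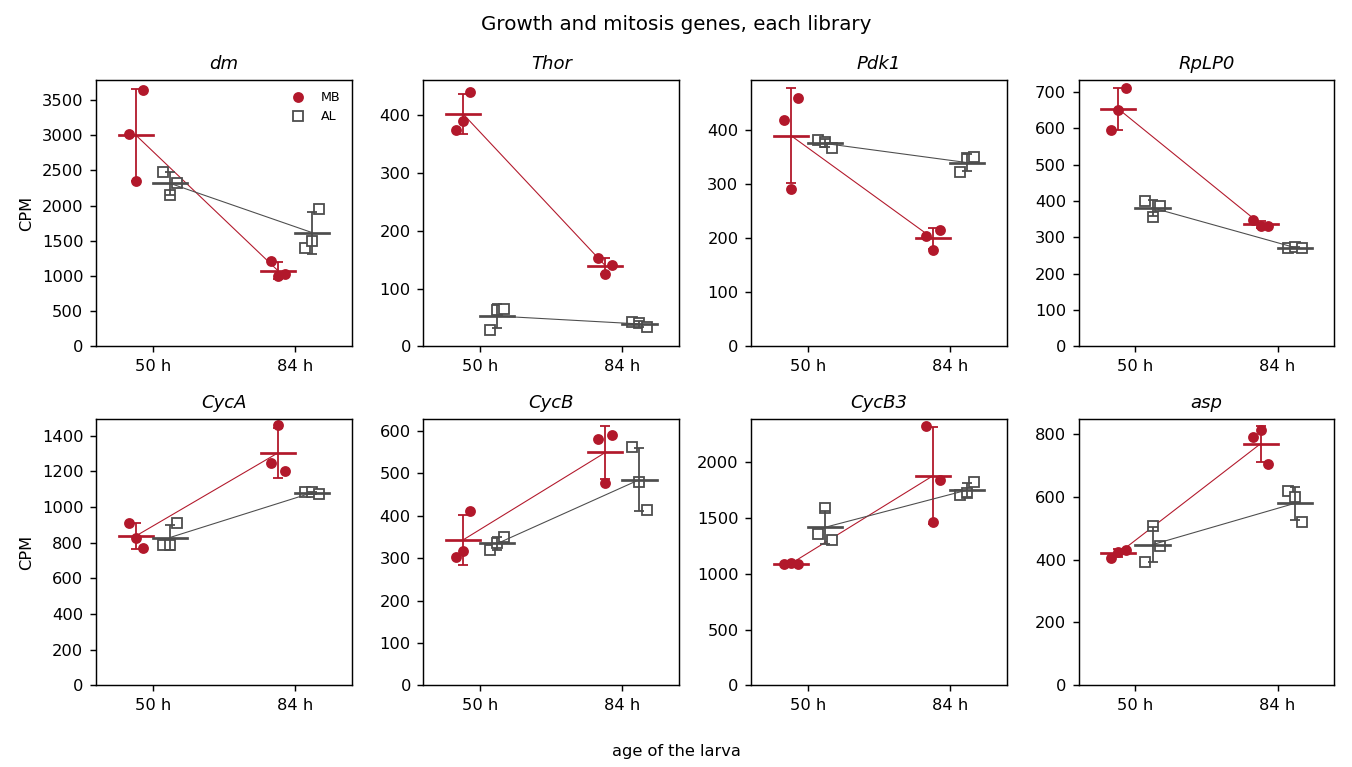
Levels (CPM, linear axis) of 4 growth genes and 4 mitotic genes in each library at 50 and 84 h, with mushroom body libraries as filled circles and antennal lobe libraries as open squares. Bars mark the mean and whiskers 1 SD over 3 libraries, and lines join the means. In the mushroom body dm, Thor, Pdk1 and RpLP0 are lower at 84 h and CycA, CycB, CycB3 and asp higher, and no gene shown has overlapping ages there. The antennal lobe ages overlap for Thor.

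Genes of the cytoplasmic ribosome fell by small amounts relative to other genes. Of 88 tested, 65 fell and 1 rose, beside 2.89% lower and 0.998% higher over all genes tested. The median log2 change was −0.56, and the 65 lay between −0.99 and −0.43. Under spike-in scaling 0 fell and the median was 0.22, still −0.57 relative to the median of all genes. Ribosomal protein genes took 6.36%, 7.68% and 7.08% of the scaled totals at 50 h and 4.67%, 5.11% and 4.53% at 84 h. RpLP0, of the ribosomal stalk, stood at 596, 651 and 711 CPM at 50 h and at 347, 330 and 331 CPM at 84 h. The ages did not overlap (1.94-fold lower, log2 −0.96 ± 0.11, adjusted p = 1.6e-07). RpL41 (−0.78 ± 0.11), RpL28 (−0.79 ± 0.11) and RpL10Ab (−0.86 ± 0.13) were the next 3 by p. The riser was RpS15Ab, at 36.1, 33.0 and 40.5 and then 85.1, 58.4 and 63.7 CPM (0.92 ± 0.26, adjusted p = 0.031). It has a close paralog, RpS15Aa, so the split of reads between them is uncertain, and its call was lost without any of the 50 h libraries or replicate 1 of 84 h (0.74 to 1.04). The count of falling genes was 41 without replicate 2 of 50 h and 42 without replicate 3 of 84 h, against 51 by limma on TPM plus 1. In the antennal lobe 15 of the 88 fell between the same ages (median −0.30), and 0 of the 88 differed between the lineages by edgeR at an adjusted p below 0.05 or by DESeq2 or limma, while 20 had an unadjusted p below 0.05.

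Other lists of protein synthesis held calls too, all of them lower, beside 2.89% lower over all genes tested. Of 74 tested mitochondrial ribosomal proteins 1 was called, mRpL36 (39.6, 29.4 and 29.9 to 12.1, 12 and 10.3 CPM, log2 −1.52 ± 0.46, adjusted p = 0.047), and it was lost with any of the 6 libraries left out. The median of the list was 0.09. Nucleolar genes of ribosome production had 2 of 20 lower. Nop17l, which takes part in assembly of box C/D particles, went from 178, 152 and 156 to 68.9, 93.2 and 63.3 CPM (−1.11 ± 0.21, adjusted p = 0.00052), and overlaps the gene mus205, whose counts were 0.585 of its own. The rRNA methylase gene Fib went from 201, 217 and 173 to 120, 146 and 130 CPM (−0.58 ± 0.16, adjusted p = 0.026; 0.21 under spike-in scaling) and was lost without replicate 1 or 2 of 50 h, or replicate 1 or 3 of 84 h (−0.66 to −0.47). Translation factors had 3 of 24 lower (median −0.29), one of them Thor. The others were eIF-1A (534, 521 and 499 to 368, 384 and 380 CPM, −0.46 ± 0.12, adjusted p = 0.015), which was lost without replicate 1 or 2 of 50 h or replicate 1 or 3 of 84 h, and Ef1beta (762, 789 and 795 to 593, 526 and 619 CPM, −0.43 ± 0.12, adjusted p = 0.028), which was lost with any library left out; spike-in scaling gave 0.31 and 0.34.

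Metabolic lists held calls in both directions, beside 3.88% called over all genes tested. Aldolase (Ald), of glycolysis, rose from 784, 1072 and 883 to 1822, 1624 and 1759 CPM with no overlap (log2 0.93 ± 0.14, adjusted p = 1.3e-05). Hexokinase A (Hex-A) went from 81.6, 80.0 and 78.8 to 135, 112 and 156 CPM (0.75 ± 0.23, adjusted p = 0.048), called in 1 of the 6 fits with a library left out, that without replicate 2 of 84 h. The hypoxia factor gene sima fell from 513, 503 and 534 to 285, 277 and 312 CPM (−0.83 ± 0.19, adjusted p = 0.007), and was lost without replicate 2 of 84 h (−0.85 to −0.78). Of 18 glycolysis genes 2 rose and 1 fell, with a median of −0.13. Between 24 and 50 h, a step that shares the 50 h libraries, 11 rose with a median of 0.99.

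The trehalose transporter gene Tret1-2 fell from 64.2, 76.9 and 43.3 to 13.3, 11.6 and 14.8 CPM (−2.21 ± 0.54, adjusted p = 0.0094), a call lost without replicate 2 of 50 h, replicate 1 of 84 h or replicate 2 of 84 h (−2.41 to −1.99). Its paralog Tret1-1 was at 403, 456 and 349 and then 150, 193 and 160 CPM (−1.26 ± 0.49, adjusted p = 0.21). Of 13 sugar transport and pentose phosphate genes Tret1-2 was the 1 called. Cytochrome c (Cyt-c-p) went from 526, 606 and 517 to 353, 346 and 355 CPM (−0.65 ± 0.14, adjusted p = 0.0028; 0.14 under spike-in scaling), and with ATPsyn-Cf6 it made 2 of 30 oxidative phosphorylation genes lower (median −0.29). ATPsyn-Cf6 (−0.74, adjusted p = 0.018) was lost without replicate 2 or 3 of 50 h, or replicate 1 or 3 of 84 h. None of 16 genes of the tricarboxylic acid cycle was called by edgeR, while DESeq2 called 3 and limma 1. An unadjusted p below 0.05 was reached by 3 of the 16, beside 14.5% of all genes tested. The smallest adjusted p by edgeR was 0.066 (Scsalpha and skap).

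Mitotic cyclins rose. CycA, CycB and CycB3 passed the test with no overlap between ages and with each library left out. CycA went from 913, 827 and 772 to 1245, 1460 and 1204 CPM (log2 0.64 ± 0.11, adjusted p = 0.00011). CycB went from 303, 316 and 410 to 581, 476 and 589 CPM (0.68 ± 0.14, adjusted p = 0.0012). CycB3 went from 1084, 1100 and 1090 to 2327, 1463 and 1844 CPM (0.78 ± 0.13, adjusted p = 7.4e-05). These were the 3 calls among 21 genes of cyclins and mitotic entry, whose median was 0.18, beside 0.998% higher over all genes tested. The spindle pole gene asp, mutated in microcephaly in its human form, rose from 406, 423 and 430 to 790, 811 and 702 CPM (0.87 ± 0.14, adjusted p = 3.6e-05). It was 1 of 3 risers among 43 spindle, kinetochore and condensin genes, with a median of 0.35, beside 0.998% higher over all genes tested. The others, the centriole gene Sas-4 (2.96, 16.2 and 12.7 to 29.9, 29.8 and 33.6 CPM, 1.54 ± 0.45, adjusted p = 0.039) and the microtubule polymerase gene msps (913, 883 and 1044 to 1281, 1130 and 1188 CPM, 0.34 ± 0.10, adjusted p = 0.047), were lost in 5 and 4 of the 6 fits with a library left out. Sas-4 held without replicate 2 of 50 h, and msps without replicate 3 of 50 h or replicate 2 of 84 h. Of 26 replication licensing genes Mcm7 alone was called, at 326, 357 and 409 and then 509, 476 and 502 CPM (0.45 ± 0.13, adjusted p = 0.033), and was lost without replicate 1 or 2 of 50 h, or replicate 1 or 3 of 84 h (0.40 to 0.54). The tubulin gene betaTub60D rose from 72.4, 62.7 and 82.6 to 199, 105 and 182 CPM (1.16 ± 0.19, adjusted p = 6.8e-05), 1 of 9 tubulin genes.

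**Figure D4:**
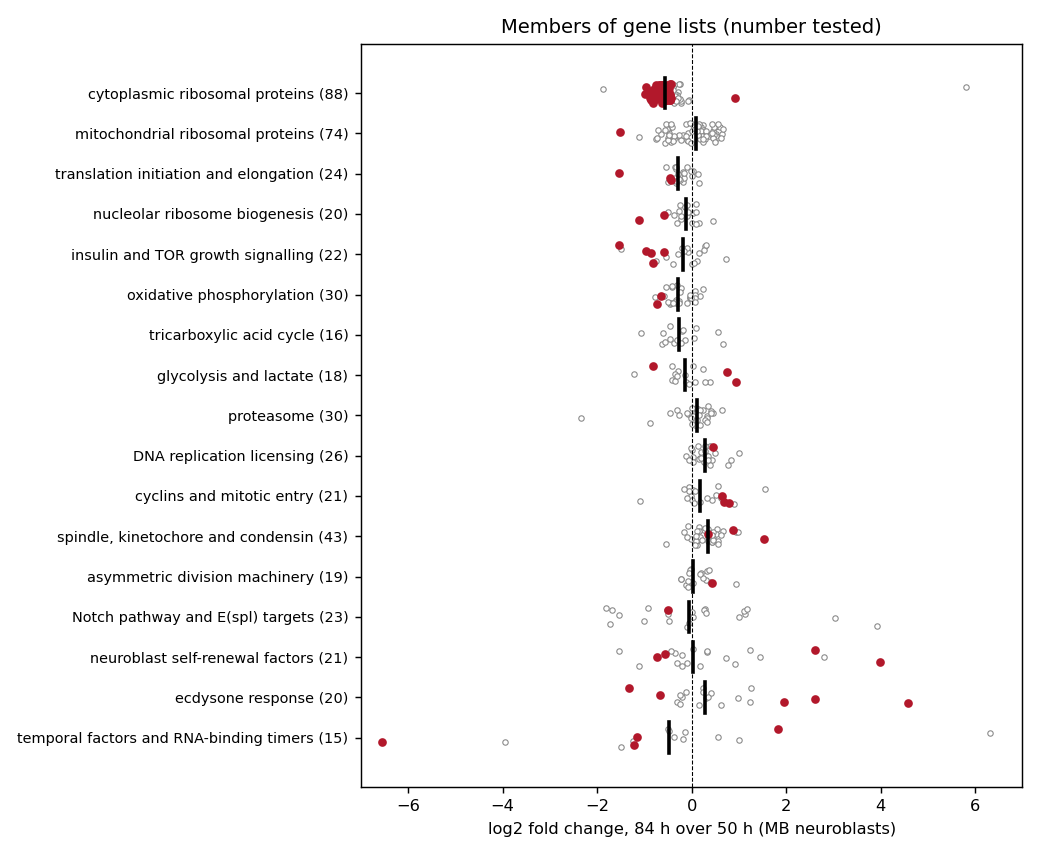
Log2 change from 50 to 84 h (horizontal axis) of each tested member of 17 gene lists, 1 list a row, with called genes filled, a thick bar at each list's median and a dashed line at the median of all genes tested (0.01). Cytoplasmic ribosomal proteins lie mostly below 0, and the cyclins, spindle and replication lists have medians above 0.

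The largest rises among genes reaching 10 CPM began from near absence. The zinc finger gene Sp1 had 0 counts in the 3 libraries of 50 h and stood at 13.5, 7.53 and 16 CPM at 84 h, at least 15.8-fold higher against a floor of 3 counts per library (adjusted p = 0.0025). Gasp, a chitin-binding protein of tracheal and cuticular matrix, was at 1.18, 0 and 0.239 CPM and then 55.4, 17.9 and 51.5 CPM (log2 6.49 ± 1.02, adjusted p = 7.4e-05). In pupae Gasp was at 0.467, 0 and 0 CPM. The chitin deacetylase gene verm was at 0.591, 0 and 2.15 and then 59.7, 24.7 and 38.7 CPM (5.44 ± 1.01, adjusted p = 0.00043). Both are tracheal markers, and they carried the rise of the summed tracheal markers given above. Another marker, serp, was at 0.887, 4.41 and 1.20 and then 8.20, 5.20 and 13.5 CPM with no overlap but was not called (2.03, adjusted p = 0.34). The tracheal determinants trh (−0.86, adjusted p = 0.63) and btl (0.24, adjusted p = 0.96) were not called either. Of the whole list 2 of 12 tracheal and epithelial genes rose and 1 fell. Whether tracheal or epithelial RNA had a part in the values of Gasp and verm was not tested. The 1 that fell was uif (5.03, 11.3 and 5.74 to 1.03, 0 and 1.13 CPM, adjusted p = 0.048), lost with any of the 6 libraries left out. Of 66 cuticle and chitin genes verm and Gasp were the 2 called.

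Other steep rises were those of eya, a phosphatase and transcriptional coactivator (0.296, 0 and 0.957 to 12.7, 8.24 and 15.8 CPM, log2 4.78 ± 0.83, adjusted p = 0.00013), of sog, an extracellular BMP antagonist (3.25, 4.65 and 3.83 to 54.6, 23.8 and 44.5 CPM, 3.37 ± 0.65, adjusted p = 0.0031), and of the small heat shock gene Hsp67Ba (19.5, 8.57 and 9.57 to 61.1, 58.2 and 70.1 CPM, 2.34 ± 0.45, adjusted p = 0.00084). In pupae eya was at 0.934, 0.202 and 0.846 CPM, while sog was at 225, 208 and 188 CPM. CG9238 rose from 4.43, 3.92 and 5.03 to 41.6, 38.4 and 37.4 CPM (3.13 ± 0.42, adjusted p = 2.1e-06), with little spread at either age. The remaining 4 of the 15 steepest, CG11509, the organic anion transporter gene Oatp33Eb, CG13023 and CG11023, rose by 2.49 to 2.95 on the log2 scale. Their calls were each lost in some fit with a library left out. CG11509 was lost without replicate 2 or 3 of 50 h or replicate 3 of 84 h (2.16 to 3.67). Oatp33Eb was lost without replicate 1 or 3 of 50 h or replicate 3 of 84 h (2.22 to 3.35). CG13023 was lost without replicate 2 of 50 h (2.21 to 3.34) and CG11023 without replicate 3 of 84 h (2.06 to 2.76).

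Of the steepest falls after lin-28, 8 were called with each library left out. CG32037 went from 108, 97.2 and 83.5 to 15, 9.50 and 7.89 CPM (log2 −3.16 ± 0.35, adjusted p = 2.6e-08). Ten-a, a teneurin that matches synaptic partners, went from 92.2, 56.3 and 74.0 to 13.3, 14.2 and 8.64 CPM (−2.62 ± 0.32, adjusted p = 4.4e-06). CanB2, a calcineurin regulatory subunit, went from 40.2, 46.0 and 55.5 to 5.95, 5.02 and 7.14 CPM (−2.97 ± 0.50, adjusted p = 0.0001), and the ubiquitin ligase gene Trim9 from 15.7, 8.32 and 18.4 to 1.03, 0.717 and 1.31 CPM (−3.77 ± 0.73, adjusted p = 0.00061). The 15 steepest falls were taken only from genes whose ages did not overlap, so the lack of overlap in these 4 is no separate result. All 4 held with each library left out. The anion transporter gene Prestin (15.4, 5.87 and 18.4 to 0.205, 2.33 and 0.188 CPM, −3.80 ± 0.64, adjusted p = 7.9e-05), the esterase gene alpha-Est9 (−3.22 ± 0.48, adjusted p = 1.1e-05), the zinc finger gene ovo (22.2, 18.4 and 59.1 to 7.18, 2.51 and 1.31 CPM, −3.19 ± 0.63, adjusted p = 0.0033) and CG10186 (−3.52 ± 0.79, adjusted p = 0.0037) also held.

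The calls of the other 6 of the 15 steepest falls were each lost in some fit with a library left out, which also leaves fewer samples. CG4580 (−4.34) was lost without replicate 3 of either age, and CG10200 (−3.66) without these or replicate 2 of 84 h. Hs3st-A (−3.48), a heparan sulfate sulfotransferase gene, was lost without replicate 3 of 50 h or any of the 84 h libraries, and asparagine-synthetase (117, 83.5 and 91.9 to 14.4, 18.6 and 11.6 CPM, −2.71, adjusted p = 0.017) without replicate 1 of 50 h or any of the 84 h libraries. CG15343 (−2.78) held only without replicate 2 of 50 h, and it overlaps CG1636 and CG1632, whose counts were 12.7 and 2.63 times its own. Toll-6, a leucine-rich repeat receptor (36.4, 45.0 and 34.2 to 4.31, 12.2 and 0.376 CPM, −2.76, adjusted p = 0.012), was lost without replicate 1 of 84 h. These 6 ranged over leave-one-out fits from −5.80 to −3.63, −4.39 to −3.17, −3.80 to −2.74, −2.90 to −2.53, −3.14 to −2.14 and −4.04 to −2.18.

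Of 42 adhesion and guidance genes 5 fell and 1 rose (median −0.12, with 16 members above 0), beside 2.89% lower and 0.998% higher over all genes tested. Besides Toll-6 the falling genes were the netrin gene NetB (23.1, 14.9 and 21.1 to 4.72, 9.14 and 6.95 CPM, −1.50, adjusted p = 0.048, lost with any library left out), its receptor gene unc-5 (86.9, 67.1 and 71.8 to 48.6, 44.1 and 34.4 CPM, −0.83, adjusted p = 0.017), the semaphorin gene Sema-1a (194, 168 and 213 to 113, 92.1 and 134 CPM, −0.76, adjusted p = 0.0012) and sdk (−0.51, adjusted p = 0.013). Of those named, unc-5 was lost without replicate 1 of 50 h or replicate 3 of 84 h (−0.94 to −0.67) and overlaps Pms2 with 0.946 times its counts, while sdk was lost without replicate 1 or 3 of 50 h or replicate 1 or 2 of 84 h (−0.56 to −0.44) and had 0.25 under spike-in scaling. The immunoglobulin gene Lac was the 1 riser, at 9.17, 4.16 and 0.239 and then 11.7, 12.2 and 37.6 CPM (2.20, adjusted p = 0.022), with no overlap between ages, and was lost without replicate 2 or 3 of 50 h or replicate 3 of 84 h (1.45 to 3.22).

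RNA-binding proteins other than Imp and Syp had 4 of 35 lower and 1 higher, stau. Over all genes tested 2.89% were lower and 0.998% higher. The splicing regulator gene ps went from 428, 301 and 354 to 219, 176 and 205 CPM (−0.85 ± 0.14, adjusted p = 6.8e-05) and held with each library left out. The translational repressor gene pum went from 682, 518 and 845 to 451, 312 and 433 CPM (−0.77 ± 0.18, adjusted p = 0.0078), lost without replicate 3 of 50 h or replicate 2 of 84 h (−0.91 to −0.59). The hnRNP K gene bl (−0.50, adjusted p = 0.016) was lost without replicate 1 or 2 of 50 h or replicate 1 or 3 of 84 h (−0.56 to −0.39), and the ELAV-family gene fne (152, 113 and 132 to 90.0, 60.8 and 90.9 CPM, −0.72, adjusted p = 0.034) held only without replicate 2 of 50 h (−0.80 to −0.54). Under spike-in scaling bl was at 0.29 and fne at 0.01.

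Some markers of newborn neurons and differentiated cells were called, beside 3.88% of all genes tested. Of 14 newborn neuron and ganglion mother cell markers 3 fell, dac, ase and fne, which other lists also hold. Of 22 neuron markers cpx fell, from 47.6, 22.8 and 12.9 to 6.97, 7.53 and 5.82 CPM (−2.02 ± 0.40, adjusted p = 0.00076), and was lost without replicate 1 of 50 h (−2.37 to −1.37). Of 13 mushroom body neuron markers 14-3-3zeta fell (−0.36, adjusted p = 0.032), but held only without replicate 3 of 50 h, and of 15 glia markers the sodium pump subunit gene nrv2 fell (−0.52, adjusted p = 0.039), but held only without replicate 3 of 84 h; spike-in scaling gave 0.40 and 0.26. No gene passed the edgeR test among 11 haemocyte, 7 fat body and 12 muscle markers, and the smallest adjusted p in these lists were 0.14 (crq), 0.43 (Lsp1gamma) and 0.36 (Act57B). In these lists 1 haemocyte gene and no other had an unadjusted p below 0.05, beside 14.5% of all genes tested. DESeq2 called 0 and limma 1, a haemocyte gene.

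Among cell death genes 1 of 16 rose and 1 fell. The caspase gene Ice rose from 30.2, 25.5 and 27.5 to 82.2, 41.2 and 53.3 CPM (1.09 ± 0.27, adjusted p = 0.01), lost without replicate 1 of 84 h (0.77 to 1.30), and the TNF ligand gene egr fell from 29.3, 30.1 and 33.5 to 12.7, 16.7 and 9.58 CPM (−1.25 ± 0.31, adjusted p = 0.01), lost without replicate 3 of 84 h (−1.46 to −1.04). Activin and BMP signalling had 1 of 17 higher and 1 lower. The BMP receptor gene tkv went from 135, 81.7 and 161 to 59.1, 54.8 and 91.3 CPM (−0.88 ± 0.22, adjusted p = 0.015), lost without replicate 1 or 3 of 50 h or replicate 1 or 2 of 84 h (−1.11 to −0.66). The repressor gene brk (73.9, 68.3 and 59.4 to 138, 71.7 and 125 CPM, 0.73, adjusted p = 0.043) held only without replicate 2 of 84 h (0.55 to 0.98), and overlaps CG1677, with 4.25 times its counts. Of 74 glutathione S-transferase and cytochrome P450 genes 3 fell, GstD1, GstE1 and GstS1. GstD1 went from 702, 752 and 769 to 384, 370 and 434 CPM (−0.90 ± 0.17, adjusted p = 0.00076), while GstE1 (−1.40, adjusted p = 0.012) was lost without replicate 2 or 3 of 84 h and GstS1 (−0.93, adjusted p = 0.027) with any library left out.

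Of 171 long noncoding RNA genes 3 rose and 3 fell, beside 0.998% and 2.89% of all genes tested. The transcript pncr002:3R rose from 897, 940 and 1051 to 2992, 2112 and 2969 CPM (1.48 ± 0.23, adjusted p = 0.00052), and stood at a mean of 8866 CPM in pupae. CR43459 (21.6, 19.6 and 9.10 to 70.3, 40.5 and 61.6 CPM, 1.78, adjusted p = 0.0038) and CR43635 (0.591, 0.245 and 0.239 to 7.18, 3.05 and 3.94 CPM, 3.67, adjusted p = 0.049) also rose, the latter a call lost with any library left out. The snoRNA host genes Uhg5 (245, 266 and 281 to 65.8, 93.7 and 94.7 CPM, −1.64 ± 0.20, adjusted p = 1.1e-06) and Uhg2 (69.2, 72.9 and 60.1 to 31.6, 36.9 and 34.8 CPM, −0.97 ± 0.20, adjusted p = 0.0018) fell, as did MRE23 (−2.58, adjusted p = 0.043), which was lost without replicate 3 of 50 h or any of the 84 h libraries (−2.98 to −1.45). Of 24 chaperone genes Hsp83 fell, from 4205, 3804 and 4733 to 2567, 2654 and 2627 CPM (−0.70 ± 0.13, adjusted p = 0.00059; 0.07 under spike-in scaling). The remaining lists had no call by edgeR. The number of genes at an unadjusted p below 0.05 was 3 of 8 in Hedgehog signalling, 2 of 30 in the proteasome, 8 of 33 among Polycomb, trithorax and remodelling genes and 3 of 27 in the mediator complex, and DESeq2 and limma called 0 of these. It was 1 of 8 in dosage compensation and 2 of 8 in sex determination, where DESeq2 called 1 each and limma 0. Among actins it was 2 of 5, where limma called 1 and DESeq2 0. The share at an unadjusted p below 0.05 over all genes tested was 14.5%.

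The same step was compared between lineages by the interaction of lineage and age. In the antennal lobe 452 genes (4.38%) differed between 50 and 84 h, 146 of them higher (1.41%) and 306 lower (2.96%). The mushroom body shared 22 of its risers with them (21.4% of its own, 15.1% of those of the antennal lobe) and 99 of its falling genes (33.2% and 32.4%). The change in the antennal lobe had the same sign for 68 of the 103 risers and 272 of the 298 falling genes, called or not. It was called in the opposite direction for 3 and 0 of them. The change itself differed between lineages for 57 genes (0.552%), being more positive in the mushroom body for 40 (0.387%). The number was 32 without replicate 2 of antennal lobe 84 h, 35 without replicate 1 of mushroom body 50 h, 37 without replicate 1 of mushroom body 84 h and 90 without replicate 2 of mushroom body 84 h.

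Imp fell in both lineages, but much less in the mushroom body. In the antennal lobe it went from 17649 ± 3298 (SD, n = 3) to 347 ± 47.3 CPM (log2 −5.67 ± 0.15), and the difference between lineages was 4.50 ± 0.18 (adjusted p = 4.4e-17, edgeR interaction, 3 libraries per group). Syp rose by 0.88 in the antennal lobe, and its difference did not pass (0.95, adjusted p = 0.25). The gene br was already at 568 ± 31.9 CPM in the antennal lobe at 50 h and at 445 ± 32.8 CPM at 84 h, so that its change differed by 2.96 ± 0.26 (adjusted p = 4.6e-10). The mushroom body mean at 84 h was 517 ± 108 CPM. E23 fell in the antennal lobe from 158 ± 33.0 to 5.13 ± 0.808 CPM, against its small rise in the mushroom body (difference 6.88 ± 0.48, adjusted p = 1.3e-13). EcR fell in the antennal lobe from 400 ± 64.1 to 219 ± 28.3 CPM (difference 1.18 ± 0.28, adjusted p = 0.039). Eip93F rose in both, and its difference of 2.14 did not pass (adjusted p = 0.08).

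Growth genes differed in part. dm fell by 0.52 in the antennal lobe, from 2318 ± 161 to 1618 ± 299 CPM, a difference of −0.96 ± 0.17 (adjusted p = 0.00082), and Pdk1 was at 375 ± 7.33 and 340 ± 15.6 CPM there (−0.14, adjusted p = 0.66; difference −0.83 ± 0.20, adjusted p = 0.033). Uhg5 also fell further in the mushroom body (difference −1.25 ± 0.28, adjusted p = 0.02). Several genes high in the antennal lobe were low in the mushroom body at 50 h and higher at 84 h. SoxN stood at 520 ± 23.8 and 499 ± 105 CPM in the antennal lobe (difference 4.05 ± 0.39, adjusted p = 2.3e-08), hth at 2095 ± 263 and 1316 ± 95.6 CPM (2.21 ± 0.31, adjusted p = 0.00048) and slp1 at 47.1 ± 8.37 and 44.5 ± 10.9 CPM (5.22 ± 1.10, adjusted p = 0.0097). In the mushroom body slp1, a forkhead factor, had 1 count at 50 h and 58 at 84 h, a ratio of 42.8 with a counting interval of 7.39 to 1720, and in pupae it was at 0.467, 0.807 and 0.141 CPM. Its difference between lineages was lost without replicate 1 or 2 of mushroom body 50 h or replicate 3 of mushroom body 84 h. The part of antennal lobe cells in these values was not tested; the markers ems and acj6 summed to the levels given above at both ages.

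**Figure D5:**
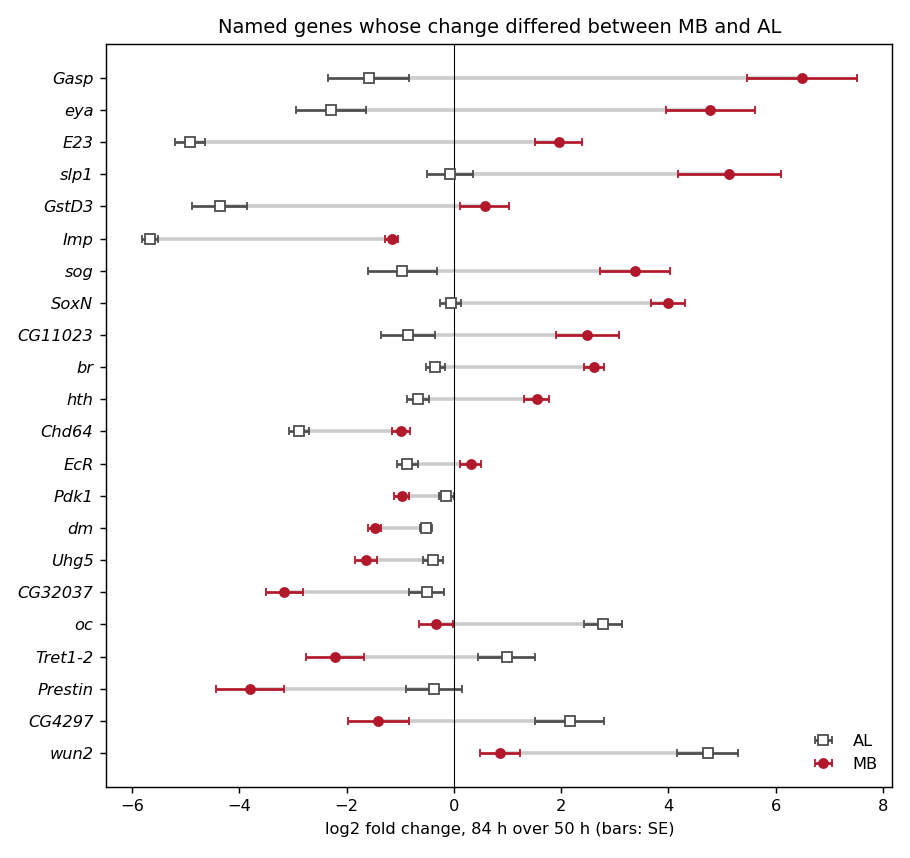
Log2 change from 50 to 84 h with its SE in the mushroom body and in the antennal lobe for 22 described genes whose change differed between the lineages. Imp falls in both, E23 and eya rise in the mushroom body and fall in the antennal lobe, and dm and Pdk1 fall further in the mushroom body.

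The late step was also set against the step from 24 to 50 h, which shares the 50 h libraries. Between 24 and 50 h 366 genes (3.55%) differed, 131 higher (1.27%) and 235 lower (2.28%), and the change differed between the steps for 26 genes (0.252%), a number that was 10 without replicate 3 of 50 h, 14 without replicate 1 of 50 h, 15 without replicate 3 of 84 h and 41 without replicate 2 of 84 h. The rise of br was late, with log2 changes of 0.57 and then 2.61 (difference 2.04 ± 0.34, adjusted p = 0.00085). SoxN changed by −0.72 and then 3.99 (4.70 ± 0.67, adjusted p = 0.00019). hth fell from a mean of 160 CPM at 24 h to 59.8 CPM and then returned to 173 CPM (−1.42 and 1.54, difference 2.96 ± 0.41, adjusted p = 0.00087). CG34380 also fell and then rose, but stayed below its 24 h level, with a mean of 143 CPM at 24 h and then 10.6, 6.12 and 11.3 CPM at 50 h and 27.7, 20.6 and 32.3 CPM at 84 h (−3.93 and 1.53, difference 5.46, adjusted p = 3e-09). CG32037 changed by 0.28 and then −3.16 (difference −3.44, adjusted p = 0.00019).

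For 3 of the timers the difference between the steps did not pass the test. Imp changed by −0.30 and then −1.16 (difference adjusted p = 0.076), Syp by 0.47 and 1.82 (adjusted p = 0.21) and chinmo by −0.38 and −1.23 (adjusted p = 0.52). Eip93F (0.25 and 4.57, adjusted p = 0.036) and lin-28 (−1.26 and −6.56, adjusted p = 0.03) differed between the steps, but the first call was lost in 7 and the second in 8 of the 9 fits with 1 library left out, Eip93F holding without replicate 2 of 24 h or of 84 h and lin-28 without replicate 3 of 24 h. Of the growth genes dm fell in both steps (−0.80 and −1.48, difference adjusted p = 0.16), and RpLP0 changed by −0.18 and −0.96 (adjusted p = 0.069). The cyclins rose in both, CycB3 by 1.11 and 0.78 and CycB by 0.85 and 0.68.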

How the data were processed

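The deposited table holds whole-number read counts per gene for 24 neuroblast libraries, and the authors' second table holds TPM values, scaled by the authors for gene length. Per the submitters' processing notes, the tools were HTSeq 0.6.1p1, STAR 2.4.0i, Bowtie2 2.1.0, cutadapt 1.7.1 and CASAVA, and the build named for the fly is dm3. Per the labels' protocols RNA was amplified with a NuGEN Ovation V2 kit, which does not keep strand, so overlapping genes cannot be told apart, and no molecular identifiers are named. From 15437 rows, 92 spike-ins, 5 summary rows and 1 unnamed row (at most 2.82e-05% of a library) were set aside. Spike-ins took 0.403% to 0.945% of counts, and 8.96% to 10.4% fell in no gene. Gene symbols that a spreadsheet had turned into dates were restored for 5 genes.

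Counts of all 24 libraries were fitted with edgeR 4.0.16 (R 4.3.3; TMM, filterByExpr, robust quasi-likelihood, 1 mean per group), leaving 10324 genes, and p-values were adjusted over all of them by Benjamini-Hochberg at 0.05. The common biological coefficient of variation was 0.471. The procedure was tested on simulated data. Alternatives were DESeq2 1.42.0, limma 3.58.1 on log2(TPM + 1), other scalings and filters, a replicate block and leaving out each library. Named genes are the 15 highest and 15 lowest changes among called genes with at least 10 CPM and no overlap, all temporal and ecdysone list members, up to 4 members of other lists by p, and 5 per direction of each difference; members of called sets outside this rule were chosen after their values were seen. The comparison and the gene lists were chosen with earlier results of these data known. Overlaps are given where another gene holds over 0.5 of a named gene's counts.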

Additional observations from a re-analysis of the deposited data

Results flagged for a closer look

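For 22 described genes the change from 50 to 84 h differed between the mushroom body and the antennal lobe by the edgeR interaction test over 3 libraries per group. All differences are mushroom body minus antennal lobe on the log2 scale. Among timers and hormone genes they were 4.50 for Imp, 6.88 for E23, 2.96 for br, 1.18 for EcR and 1.90 for Chd64. Chd64 fell from 174 ± 32.5 to 23.5 ± 1.78 CPM in the antennal lobe (SD, n = 3), further than in the mushroom body.

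Among transcription factors the differences were 4.05 for SoxN, 2.21 for hth, 5.22 for slp1, 7.07 for eya and −3.12 for oc. The head gap gene oc rose from 10.5 ± 6.5 to 72.8 ± 28.6 CPM in the antennal lobe, while in the mushroom body it was at 313, 267 and 311 and then 224, 215 and 265 CPM. In the antennal lobe eya went from 12.7 ± 12 to 2.58 ± 0.753 CPM.

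Growth genes gave −0.96 for dm, −0.83 for Pdk1, −1.25 for Uhg5 and −3.19 for Tret1-2. The last was lost in 8 of 12 fits with 1 library left out.

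Surface, matrix and enzyme genes gave 8.08 for Gasp, 4.34 for sog, −3.43 for Prestin, 4.94 for GstD3 and −3.87 for wun2, and genes of no stated role gave 3.35 for CG11023, −2.64 for CG32037 and −3.57 for CG4297. Calls were lost in 6 of 12 such fits for Prestin, 7 for CG4297 and 3 for slp1. GstD3, a glutathione transferase gene, fell from 17.0 ± 1.85 to 0.791 ± 0.190 CPM in the antennal lobe and lay at 8.87, 4.90 and 2.63 and then 9.23, 7.89 and 6.95 CPM in the mushroom body. The lipid phosphatase gene wun2 rose from 0.431 ± 0.293 to 11.9 ± 8.56 CPM in the antennal lobe and was at 57.1, 70.5 and 56.0 and then 108, 119 and 105 CPM in the mushroom body. CG4297 overlaps MED15, which held 3.11 times its counts.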

How the results depend on the processing

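Among called single genes, no sign changed under RLE scaling, DESeq2, limma, no filter or with a library left out. Spike-in and cell number scaling reversed 18 named falls, to log2 changes of 0.09 (tai), 0.07 (Hsp83), 0.17 (klu), 0.03 (ase), 0.25 (N), 0.16 (InR), 0.21 (Fib), 0.14 (Cyt-c-p), 0.06 (ATPsyn-Cf6), 0.02 (RpL41), 0.01 (RpL28), 0.31 (eIF-1A), 0.34 (Ef1beta), 0.01 (fne), 0.40 (14-3-3zeta), 0.26 (nrv2), 0.29 (bl) and 0.25 (sdk); it moves the median of all genes by 0.79, from the spike-in counts per cell. The 103 higher and 298 lower calls became 1454 and 35 under it, 199 higher by DESeq2, 158 higher with no filter, 182 and 178 by limma on log2(TPM + 1), 149 lower with 0.1 added, and 176 higher in a fit of only the groups compared; for the latter and for limma the cause was not tested. The 57 differences between lineages became 156, 154, 89, 39, 36 and 86 by DESeq2, no filter, spike-in scaling, limma with 1 and with 0.1 added, and only the groups compared. The 26 differences between steps became 87, 125, 3378, 33, 27 and 61 in the same order. With 1 library left out, which leaves fewer samples, the ranges were 61 to 114 higher, 182 to 247 lower, 32 to 90 between lineages and 10 to 41 between steps. Same-numbered pairs of 50 and 84 h correlated at −0.0359, 0.0393 and −0.00375 in their deviations from the group means, and the other pairs at −0.0382 to 0.0404. With 3 libraries per age these values cannot tell whether replicate numbers mark a shared dissection. With a replicate block 97 genes were higher and 290 lower, 71 differed between lineages and 29 between steps. At 3150371 to 5019551 counts per library, genes under about 1 CPM are near the limit of 3 counts.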

Other observations

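The following genes belong to no list and were chosen after their values were seen. The arginine kinase gene Argk rose from 175, 176 and 201 to 462, 378 and 423 CPM (log2 1.20 ± 0.13, adjusted p = 1.9e-08, edgeR), more than in the antennal lobe (difference 0.77, adjusted p = 0.028). The gene ytr rose from 1173, 1117 and 1250 to 2705, 1850 and 2498 CPM (0.99 ± 0.12, adjusted p = 2.3e-07), with a change of −0.03 in the antennal lobe (difference 1.03, adjusted p = 0.00025). CG12496 rose from 326, 443 and 396 to 832, 897 and 948 CPM (1.20 ± 0.17, adjusted p = 2e-05; difference 1.56, adjusted p = 0.00025). The receptor-like gene otk rose from 36.4, 16.6 and 22.7 to 72.6, 77.6 and 64.4 CPM (1.51 ± 0.23, adjusted p = 2.8e-05; difference 1.90, adjusted p = 0.0003). The histone variant gene His3.3A rose from 241, 236 and 253 to 531, 395 and 450 CPM (0.91 ± 0.15, adjusted p = 7.9e-05), with 0.75 in the antennal lobe. In none of these 5 did the ages overlap, and all 5 were called with each library left out.

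The microtubule plus-end gene chb, the fly CLASP, fell from 553, 413 and 461 to 181, 169 and 173 CPM (−1.45 ± 0.20, adjusted p = 1.9e-05), against 0.09 in the antennal lobe (difference −1.54, adjusted p = 0.0029). The teneurin gene Ten-m fell from 136, 129 and 162 to 42.0, 34.1 and 33.1 CPM (−1.97 ± 0.36, adjusted p = 0.0018), as did its paralog Ten-a. The circadian repressor gene cwo (131, 85.7 and 160 to 47.8, 45.0 and 76.3 CPM, −1.15, adjusted p = 0.00086) and the circadian activator gene Pdp1 (88.7, 71.5 and 58.4 to 36.7, 28.5 and 33.4 CPM, −1.15, adjusted p = 0.0029) also fell. The leucine-rich repeat gene kek1 fell from 139, 140 and 125 to 60.3, 68.5 and 68.8 CPM (−1.03 ± 0.21, adjusted p = 0.001), and CG43066 from 650, 609 and 723 to 295, 219 and 308 CPM (−1.27 ± 0.13, adjusted p = 1.8e-09). These 6 falls were called with each library left out, and under spike-in scaling that of Ten-m still was. Besides Sp1, called genes with 0 counts at one age were Hex-t1, tx, CG31955 and CG14274, all at 0 in the 84 h libraries; Hex-t1, a hexokinase gene of testis, was at 3.84, 6.61 and 8.14 CPM at 50 h and at least 10.8-fold lower at 84 h.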
